A study of Mus musculus with 9 samples.

Results

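The 105 genes described here encode, or were named with, the machinery of oxidative phosphorylation, and they were chosen by symbol alone from the protein-coding rows of a table of 38215 genes. The symbols taken were those of the mitochondrially encoded Nd, Co, Cytb and Atp genes and, in the nucleus, of the Nduf, Uqcr, Cox4 to Cox8, Atp5 and Sdh families. This gave 13 genes on the mitochondrial chromosome and 92 in the nucleus. The RNA came from bone marrow of C57BL/6J mice, from LSK cells, which lack lineage markers and carry Sca1 and Kit on their surface, the fraction that holds haematopoietic stem cells and multipotent progenitors. The cells were positive for GFP and for mCherry and were sorted at the terminal time point, and all mice had received tamoxifen. Every library carried Jak2V617F, an activating mutation of the kinase Jak2 found in myeloproliferative neoplasms. The group titled EV, a term the labels do not spell out, had the genotype Jak2V617F alone (n = 5, mice 1 to 5). The other group had the genotype Jak2V617F-sgZrsr2 (n = 4, mice 1, 2, 3 and 5) and is described by the study as having lost Zrsr2, a factor of the minor spliceosome. What drives the alleles, the age of the mice and how the guide was delivered are not given in the sources used here.

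In oxidative phosphorylation, complexes I to IV of the inner mitochondrial membrane pass electrons from NADH and succinate to oxygen and pump protons, and complex V, the ATP synthase, uses the proton gradient to make ATP. Complexes I, III, IV and V are each built from subunits encoded in both genomes, so that transcripts made inside the mitochondrion and in the nucleus have to be supplied together; complex II is encoded in the nucleus alone. Haematopoietic stem cells are known to rely on glycolysis more than their progeny do, and to raise mitochondrial respiration as they differentiate. The comparison of sgZrsr2 with EV asks how these transcripts differ when a minor spliceosome factor is lost on a Jak2V617F background.

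Of the 92 nuclear genes, 36 encode complex I subunits, 4 complex II, 8 complex III, 19 complex IV (Ndufa4 and Ndufa4l2, which bear an older complex I name, included) and 15 complex V. The other 10 are 6 complex I assembly factors (Ndufaf1 to Ndufaf6), the supercomplex factor Cox7a2l, and Atp5s, Atp5sl and Atp5l-ps1, which are not subunits. The 13 mitochondrial genes encode 7 subunits of complex I, 1 of complex III, 3 of complex IV and 2 of complex V. All 13 mitochondrial genes and 86 of the 92 nuclear genes had enough counts to be tested. The 6 that did not were Cox7a1, Cox7b2, Cox8b, Cox8c, Ndufa4l2 and Atp5l-ps1.

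The libraries held 23238264 to 45585531 expected counts, with the sgZrsr2 mice 1 and 2 the shallowest. Zrsr2 itself was at 50.6 to 62.2 CPM (counts scaled to 1000000 per library, with TMM factors) in EV and at 31.7 to 44.4 CPM in sgZrsr2. The 10 markers of LSK cells and multipotent progenitors were all detected, and their summed level was 1569 to 2149 CPM in EV and 1780 to 2220 CPM in sgZrsr2. Defining genes were present throughout, with Kit at 247 to 632 CPM, Cd34 at 544 to 705 CPM and Ly6a, which encodes Sca1, at 14.8 to 49.3 CPM. Of other cell types, the 12 erythroid markers (10 found) summed to 278 to 492 CPM in EV and 221 to 428 CPM in sgZrsr2. The 10 megakaryocyte markers summed to 260 to 467 CPM in EV and 483 to 644 CPM in sgZrsr2, and the 9 neutrophil markers to 16.9 to 189 CPM and 26.7 to 224 CPM. Monocyte markers (7 found of 8) summed to 369 to 532 CPM in EV and 314 to 476 CPM in sgZrsr2, dendritic cell markers to 574 to 894 CPM and 558 to 652 CPM, B cell markers to 20.2 to 64.7 CPM and 17.1 to 36.2 CPM, T and NK cell markers to 49.5 to 82.7 CPM and 61.2 to 97.1 CPM, and mast cell and basophil markers to 39.0 to 108 CPM and 45.0 to 155 CPM. The part that other cells played in the results below was not tested. In 3 libraries, EV mouse 5 and sgZrsr2 mice 3 and 5, the carbonic anhydrase gene Car1 stood at 25.4, 39.3 and 35.5 CPM, against at most 0.422 CPM in the other 6. Vwf was also higher in these libraries, at 53.2, 91.1 and 85.3 CPM, and was at 4.65 to 11.4 CPM in the other 6. The medians of the gene groups, and the values of the genes described most fully, are given below with and without them.

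The sequences of the mitochondrial genes bear on how their reads could be counted. The mouse mitochondrial chromosome is packed so tightly that neighbouring genes overlap, and copies of it lie in the nuclear genome. The gene mt-Nd4l (GRCm38, chrMT:9877-10173, plus strand) is shown because its counts were identical in all 9 libraries to those of Gm10222, a protein-coding row on chromosome 1 (chr1:24612404-24612700). The 294 bases of the Gm10222 transcript in GENCODE M21 were identical to the first 294 of the 297 bases of mt-Nd4l. RSEM apportions reads that fit more than a single gene, each of the pair was given the same number, and the levels of mt-Nd4l below are that number. Capitals mark the 7 bases that mt-Nd4l shares with the start of mt-Nd4.
mt-Nd4l: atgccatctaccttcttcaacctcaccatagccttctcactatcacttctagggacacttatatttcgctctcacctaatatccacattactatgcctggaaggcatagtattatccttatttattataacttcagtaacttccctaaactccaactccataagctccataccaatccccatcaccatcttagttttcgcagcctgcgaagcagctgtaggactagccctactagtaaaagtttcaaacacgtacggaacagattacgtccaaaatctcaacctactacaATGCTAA
The longest overlap among the 13 genes is that of mt-Atp8 and mt-Atp6, over 43 bases at chrMT:7927-7969 on the plus strand; mt-Atp6 also shares 1 base with mt-Co3, and mt-Nd5 shares 14 bases with mt-Nd6 on the opposite strand. The sequence is shown because mt-Atp8, with 204 bases, is the shortest of the 13, so that the shared stretch makes up a large part of it. Capitals mark the start codon of mt-Atp6 and the stop codon of mt-Atp8.
mt-Atp8 and mt-Atp6 overlap: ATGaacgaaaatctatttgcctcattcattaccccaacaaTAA
Other nuclear copies took few reads from the mitochondrial genes: Gm13340 held 0.0058% of its sum with mt-Co1, and Gm13341 0.0082% of its sum with mt-Co2.

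The promoters of the nuclear genes are shown for 4 members to which later results refer. Transcription of nuclear subunit genes is known to be supported by the factors NRF1, GABP (which binds the ETS core), YY1 and SP1. RefSeq (GRCm38.p6) had a promoter window, from 250 bases before to 50 bases after a start of transcription, for 75 of the 92 nuclear genes. Windows were searched on both strands for GCGCATGCG (NRF1, which overlaps its own reverse complement), CCGGAAG (ETS core), AAGATGGCG (YY1) and GGGGCGGGG (SP1), and a gene with several starts was counted if any of its windows held the letters. The NRF1 letters were in 10 of the 75 genes (13.3%), against 1.95% of all 27025 genes with a window. The ETS core was in 17 (22.7% against 9.93%), the YY1 letters in 8 (10.7% against 1.64%) and the SP1 letters in 13 (17.3% against 12.9%). The 27025 genes were not limited to genes tested in these cells, nor chosen to resemble the members. The letters were last set after the values were seen. A match describes the letters and is no evidence of binding. Capitals mark the matches in the following windows, each printed 5′ to 3′ on the gene's strand.
Atp5g2 (chr15:102670998-102671297, minus strand): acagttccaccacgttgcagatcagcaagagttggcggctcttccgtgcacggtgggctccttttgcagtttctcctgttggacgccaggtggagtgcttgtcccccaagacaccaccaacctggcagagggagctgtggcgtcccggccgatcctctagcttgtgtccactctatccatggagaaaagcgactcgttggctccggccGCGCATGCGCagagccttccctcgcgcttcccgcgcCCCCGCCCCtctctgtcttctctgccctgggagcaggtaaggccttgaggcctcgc
Ndufaf4 (chr4:24897833-24898132, plus strand): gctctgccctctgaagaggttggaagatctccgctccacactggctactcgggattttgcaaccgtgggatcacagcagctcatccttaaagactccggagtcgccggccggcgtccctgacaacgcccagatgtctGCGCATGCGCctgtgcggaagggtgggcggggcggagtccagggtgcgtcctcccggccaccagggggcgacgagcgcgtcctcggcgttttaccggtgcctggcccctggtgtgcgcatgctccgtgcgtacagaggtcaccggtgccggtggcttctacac
Sdhb (chr4:140961021-140961320, plus strand): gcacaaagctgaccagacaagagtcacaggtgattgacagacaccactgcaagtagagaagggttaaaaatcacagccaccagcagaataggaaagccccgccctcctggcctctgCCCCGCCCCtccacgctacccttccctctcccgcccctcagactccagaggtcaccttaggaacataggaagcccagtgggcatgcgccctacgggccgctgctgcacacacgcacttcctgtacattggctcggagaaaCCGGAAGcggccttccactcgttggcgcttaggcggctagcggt
Atp5j (chr16:84834927-84835226, minus strand): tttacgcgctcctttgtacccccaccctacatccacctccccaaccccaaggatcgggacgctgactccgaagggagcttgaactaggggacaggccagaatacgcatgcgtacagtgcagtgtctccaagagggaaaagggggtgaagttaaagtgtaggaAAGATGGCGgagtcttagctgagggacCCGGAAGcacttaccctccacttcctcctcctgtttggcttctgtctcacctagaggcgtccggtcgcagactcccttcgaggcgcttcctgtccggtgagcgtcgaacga
Atp5g2 and Ndufaf4 carry the NRF1 letters on both strands, from 42 and 113 bases before the start, and Atp5g2 and Sdhb the SP1 letters, on the opposite strand, 6 and 134 bases before it. Sdhb has the ETS core just after the start, 6 bases on. Atp5j has the YY1 letters 88 and the ETS core 61 bases before a start that lies inside its neighbour Gabpa, the gene for the alpha subunit of GABP. Its other window (chr16:84835576-84835875) held none of the letters, and the window with more matches is the one printed. Atp5j and Gabpa are read in opposite directions and overlap by 701 bases, and RSEM split reads between them.

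The 13 mitochondrial genes together took 2.97%, 2.86%, 2.66%, 3.22% and 2.35% of the counts in EV mice 1 to 5 (2.81% ± 0.327, SD, n = 5). In sgZrsr2 mice 1, 2, 3 and 5 they took 3.85%, 3.87%, 2.30% and 2.23% (3.06% ± 0.925, SD, n = 4). The sgZrsr2 libraries fell into a pair above every EV library and a pair below every EV library, so the group means hardly differed while the spread in sgZrsr2 was the wider. The 92 nuclear genes took 0.751%, 0.811%, 0.871%, 1.02% and 0.842% of the counts in EV (0.860% ± 0.102, SD, n = 5). In sgZrsr2 they took 0.864%, 0.841%, 0.636% and 0.776% (0.779% ± 0.102, SD, n = 4). Here only the library of sgZrsr2 mouse 3 lay below the EV range. The ratio of mitochondrial to nuclear counts within a library, which does not depend on scaling, was 3.95, 3.53, 3.06, 3.14 and 2.79 in EV and 4.46, 4.61, 3.61 and 2.87 in sgZrsr2. The difference of the group means on the log2 scale was 0.12 for the mitochondrial share, -0.14 for the nuclear share and 0.24 for the ratio. Each is smaller than the SD between libraries within groups, which was 0.320, 0.181 and 0.254 on that scale, and the groups overlapped in all 3 measures. Without the 3 libraries high in Car1 the differences were 0.40, -0.02 and 0.41. In bulk RNA, fewer cells of a type and less RNA per cell cannot be told apart, and a share can change because other transcripts do.

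**Figure D1:**
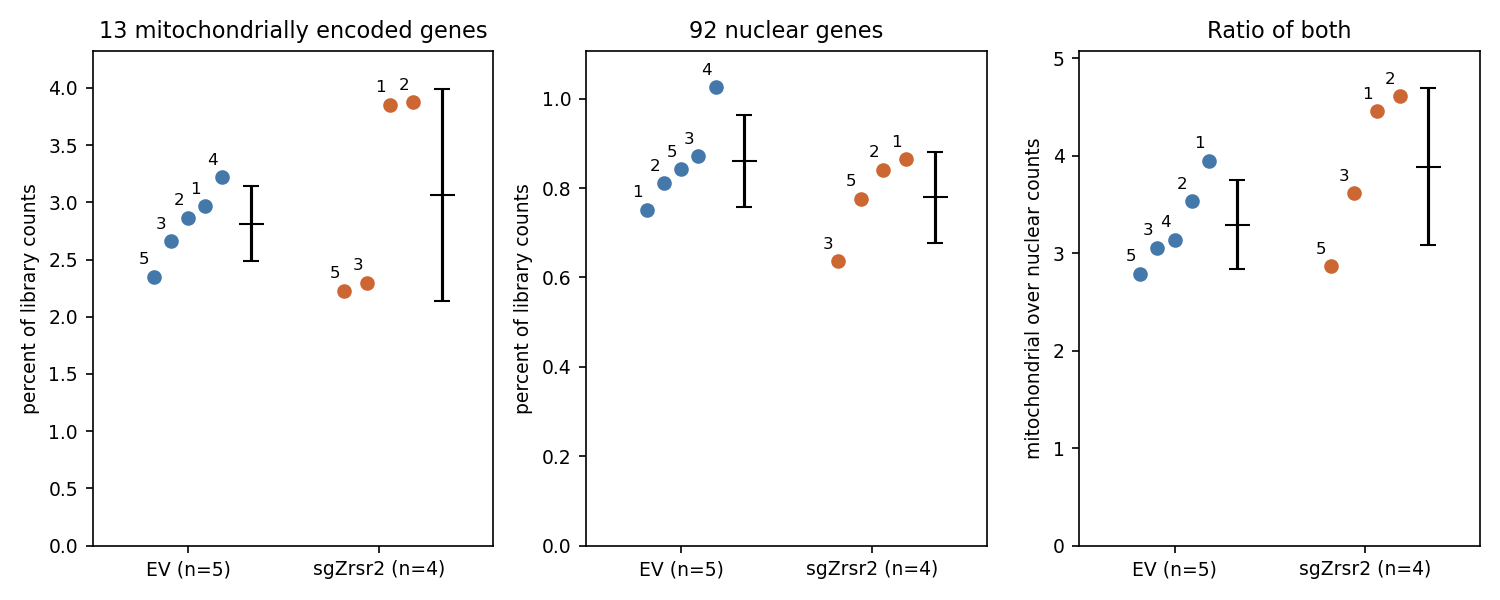
Share of library counts in the 13 mitochondrially encoded genes (left) and the 92 nuclear genes (middle), in percent, and the ratio of the first to the second (right), by group; points are libraries labelled with the mouse number, and bars are the mean and SD. The mitochondrial share of sgZrsr2 mice 1 and 2 (3.85% and 3.87%) lies above, and that of mice 3 and 5 (2.30% and 2.23%) below, all 5 EV libraries.

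None of the 99 tested genes of oxidative phosphorylation passed edgeR's quasi-likelihood test at an adjusted p of 0.05, and none did with DESeq2. The background was as empty: 0.000% of the 14944 genes tested were called in either direction by edgeR, and 0.107% (16 genes) by DESeq2. The smallest adjusted p among the members was 0.714 by edgeR, and DESeq2 gave 0.563 for Atp5g2. At an unadjusted p under 0.05, 2 of the 86 nuclear genes were lower, Atp5g2 and Uqcr10, and none was higher, against a background of 2.98% of all genes lower and 3.87% higher. None of the 13 mitochondrial genes reached that level. No member had groups that did not overlap, which 1.75% of all genes did as higher and 1.32% as lower in sgZrsr2. The nuclear genes shared a sign more than a size: 81 of 86 had a log2 fold change below 0 (sgZrsr2 over EV), where 51.5% of all genes did. Their median log2 fold change was -0.18, beside -0.01 for all genes tested. The mitochondrial genes had the opposite sign in 11 of 13, where 48.5% of all genes did, with a median of 0.09. These genes vary together between libraries, so their shared sign is not a count of separate observations.

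**Figure D2:**
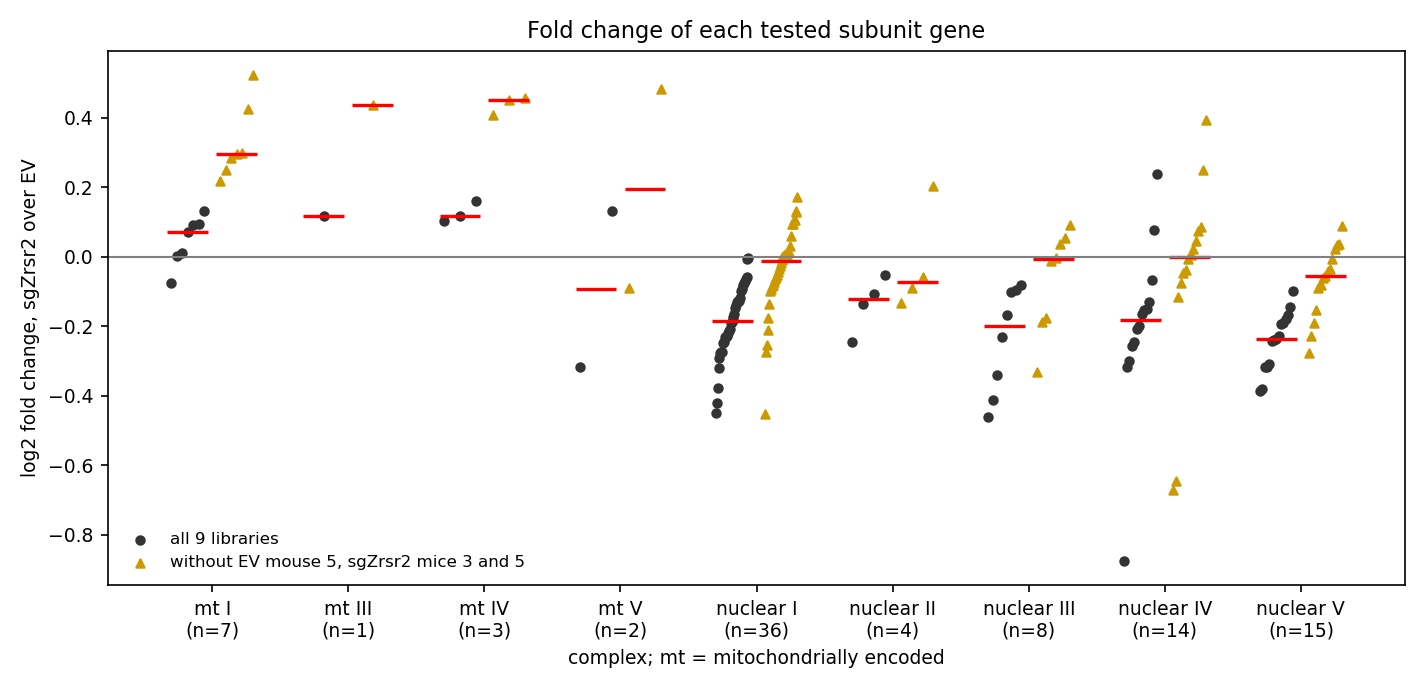
Log2 fold change of sgZrsr2 over EV (vertical axis) for each tested subunit gene, by genome and complex (horizontal axis), in all 9 libraries (circles) and without EV mouse 5 and sgZrsr2 mice 3 and 5 (triangles); red lines are medians. The nuclear medians lie between -0.24 and -0.12 over all 9 libraries and at -0.07 or nearer to 0 without the 3.

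The shared sign leaned on single libraries. The library of sgZrsr2 mouse 3 had the lowest level in 74 of the 86 nuclear genes, against 20.9% of all genes, and that of EV mouse 4 the highest in 63 of 86, against 14.0%. Without sgZrsr2 mouse 3 the median of the nuclear genes was -0.07, and 69 of 86 were below 0, where 54.7% of all genes were. Without EV mouse 4 it was -0.11, with 74 below 0 and a background of 52.6%. Without EV mouse 5 and sgZrsr2 mice 3 and 5, the libraries high in Car1, the median was -0.01 and 50 of 86 were below 0, near the 53.7% of all genes. With limma-voom and sample quality weights it was 0.01, with 39 below 0 and a background of 53.0%. The sign of the nuclear genes in this contrast therefore depended on which libraries were counted. The mitochondrial genes went the other way: without the same 3 libraries their median was 0.41, 12 of 13 were above 0 (46.3% of all genes), and 8 of 13 had an unadjusted p under 0.05, against 5.62% of all genes higher. Without sgZrsr2 mouse 1 or mouse 2 it was -0.06 or -0.05, with 12 of 13 below 0 each time, where 51.1% of all genes were. No member passed after adjustment in any of these fits. Without the 3 libraries, edgeR's smallest adjusted p among the mitochondrial genes was 0.257, and only sgZrsr2 mice 1 and 2 are left in that group. These were the shallowest libraries, with 16198 and 16844 genes detected against 18399 to 19464 in the others. The part of depth in the mitochondrial values was not tested.

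**Figure D3:**
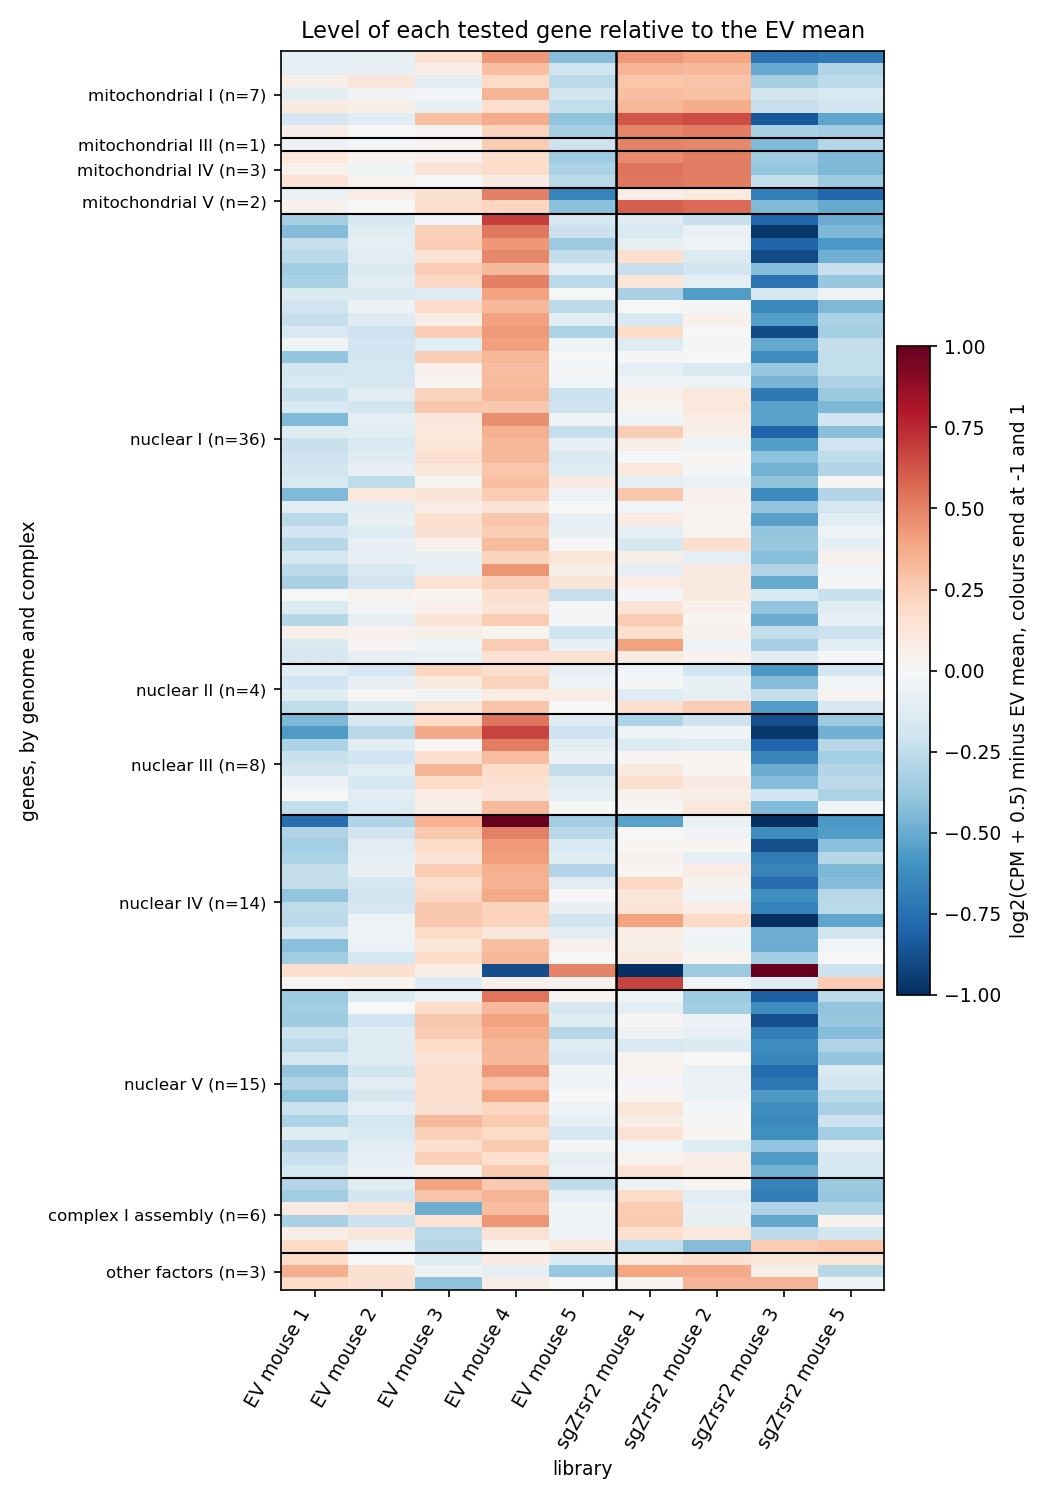
Level of each tested gene (rows, grouped by genome, complex and role, with black lines between groups, and ordered by log2 fold change within each group) in each library (columns) as log2(CPM + 0.5) minus the EV mean, red above and blue below it, with colours ending at -1 and 1. Nearly the whole nuclear block is blue in sgZrsr2 mouse 3 and red in EV mouse 4, and the mitochondrial block at the top is red in sgZrsr2 mice 1 and 2.

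Among the mitochondrial genes, levels per length were highest for the core subunits of complex IV and for mt-Atp6 and lowest for complex I. The catalytic subunit mt-Co1 led with 5938 CPM per kilobase (± 1434, SD over 9 libraries). It was followed by mt-Co2 with 5239, mt-Atp6, the proton channel of ATP synthase, with 4986, and mt-Co3 with 3937 CPM per kilobase. Next came mt-Cytb, the cytochrome b of complex III, with 2562, mt-Nd1 with 2200, mt-Nd4 with 1342 and mt-Atp8 with 1108 CPM per kilobase. The remaining complex I genes mt-Nd5, mt-Nd2, mt-Nd3, mt-Nd6 and mt-Nd4l were at 917, 806, 595, 541 and 309 CPM per kilobase. Ranges over the libraries overlapped for every pair of neighbours except mt-Nd6 and mt-Nd4l. That last place follows from the equal division of reads with Gm10222: the sum of both rows was at 617 CPM per kilobase, above mt-Nd3 and mt-Nd6. As counted, the order was steadier within libraries: the higher of 2 neighbours was higher in 8 or 9 of the 9 libraries, apart from mt-Atp8 over mt-Nd5 and mt-Nd3 over mt-Nd6, each in 6.

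The most abundant mitochondrial genes showed the pattern of their summed share. In EV mice 1 to 5 the level of mt-Co1 (chrMT:5328-6872) was 9484, 8968, 9150.4, 9937 and 6869.8 CPM. In sgZrsr2 mice 1, 2, 3 and 5, in this order throughout, it was 12221, 12566, 6884 and 6488 CPM. Its log2 fold change was 0.10 ± 0.22 (SE, edgeR adjusted p = 0.910). In sgZrsr2 mice 1 and 2 it stood above every EV library, and in mice 3 and 5 it was close to the lowest EV library, that of mouse 5. For mt-Cytb the EV values were 2698, 2795, 2845, 3359.8 and 2432 CPM and the sgZrsr2 values 3963, 3911, 2069 and 2306 CPM (log2 fold change 0.12 ± 0.20, adjusted p = 0.895). The gene mt-Atp6 was at 3310.4, 3201, 3628, 3736 and 2404 CPM in EV and 4864, 4775, 2366 and 2271 CPM in sgZrsr2, and its log2 fold change was 0.13 ± 0.25. Both again split the sgZrsr2 group into a high and a low pair. Without the 3 libraries high in Car1 the log2 fold changes of mt-Co1, mt-Cytb and mt-Atp6 were 0.41, 0.44 and 0.48, with edgeR adjusted p of 0.260, 0.332 and 0.291. The other members of complex IV, mt-Co2 and mt-Co3, had log2 fold changes of 0.12 and 0.16.

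The mitochondrial complex I genes, which encode the membrane arm through which protons are pumped, had log2 fold changes from -0.07 to 0.13. The widest range was that of mt-Nd1 (chrMT:2751-3707), which was at 1781, 1866, 2465, 2595 and 1513 CPM in EV and 3081, 3148, 1109.8 and 1392 CPM in sgZrsr2 (log2 fold change 0.09 ± 0.31, adjusted p = 0.947). Its level differed between sgZrsr2 mice 2 and 3 more than between any 2 EV libraries, and without the 3 libraries high in Car1 the value was 0.52. The light-strand gene mt-Nd6 (chrMT:13552-14070, minus strand), which is the only 1 of the 13 read from that strand, was at 289, 303, 258, 319 and 231 CPM in EV and 337, 339, 221 and 232 CPM in sgZrsr2. With a log2 fold change of 0.01 ± 0.16 its group means were nearly equal, and the same high and low pairs were present. It was 0.22 when the 3 libraries were left out. Its counts may hold reads of RNA from the opposite strand, where mt-Nd5 overlaps it or elsewhere along the gene. Strandedness is not given in the sources used here. The values for mt-Nd2, mt-Nd3, mt-Nd4, mt-Nd4l and mt-Nd5 were 0.00, -0.07, 0.13, 0.07 and 0.09. In mt-Nd3 and mt-Nd4l, EV mouse 4 was above at least 1 of sgZrsr2 mice 1 and 2.

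The only other mitochondrial gene below 0 was mt-Atp8, a small membrane subunit of ATP synthase. It was at 229, 253, 266, 340.2 and 150.3 CPM in EV and 251, 257, 149 and 139 CPM in sgZrsr2, a log2 fold change of -0.32 ± 0.25 (edgeR adjusted p = 0.759). The sgZrsr2 mice 1 and 2, which were above EV in most of the other genes, were within the EV range here, and without the 3 libraries high in Car1 the value was -0.09. As a share of the counts of all 13 genes, mt-Atp8 was 0.786%, 0.895%, 0.892%, 1.04% and 0.668% in EV and 0.631%, 0.641%, 0.693% and 0.651% in sgZrsr2. The shares overlap through EV mouse 5 alone, whose value lies among those of the sgZrsr2 group. By contrast the share of mt-Co1 kept within 30.4% to 32.5% over all 9 libraries and that of mt-Co2 within 11.8% to 12.6%. The share of mt-Nd1 ran from 5.17% (sgZrsr2 mouse 3) to 8.27% (EV mouse 3). The shares of these abundant complex IV genes thus varied less than the sum of the 13 did, and those of mt-Nd1 and mt-Atp8 varied as well.

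The mitochondrial ribosomal RNAs, mt-Rnr1 and mt-Rnr2, varied in the same libraries and by more. They took 0.114%, 0.114%, 0.217%, 0.137% and 0.0562% of the counts in EV and 0.193%, 0.195%, 0.0527% and 0.0466% in sgZrsr2. The 3 libraries high in Car1 had the lowest values, and also the lowest ratio of these rRNAs to the 13 mRNAs, 2.10% to 2.39% against 3.85% to 8.16% in the other 6. The libraries were made from RNA selected for polyadenylation. These values therefore describe the rRNA that was captured and not its amount in the cells. The part of the cells that Car1 and Vwf mark was not tested. Neither rRNA passed the test between the groups (edgeR adjusted p = 0.973 for mt-Rnr1 and 0.969 for mt-Rnr2), with log2 fold changes of -0.08 ± 0.53 and -0.10 ± 0.52. Their median was -0.09 with all libraries and 0.41 without the 3.

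**Figure D4:**
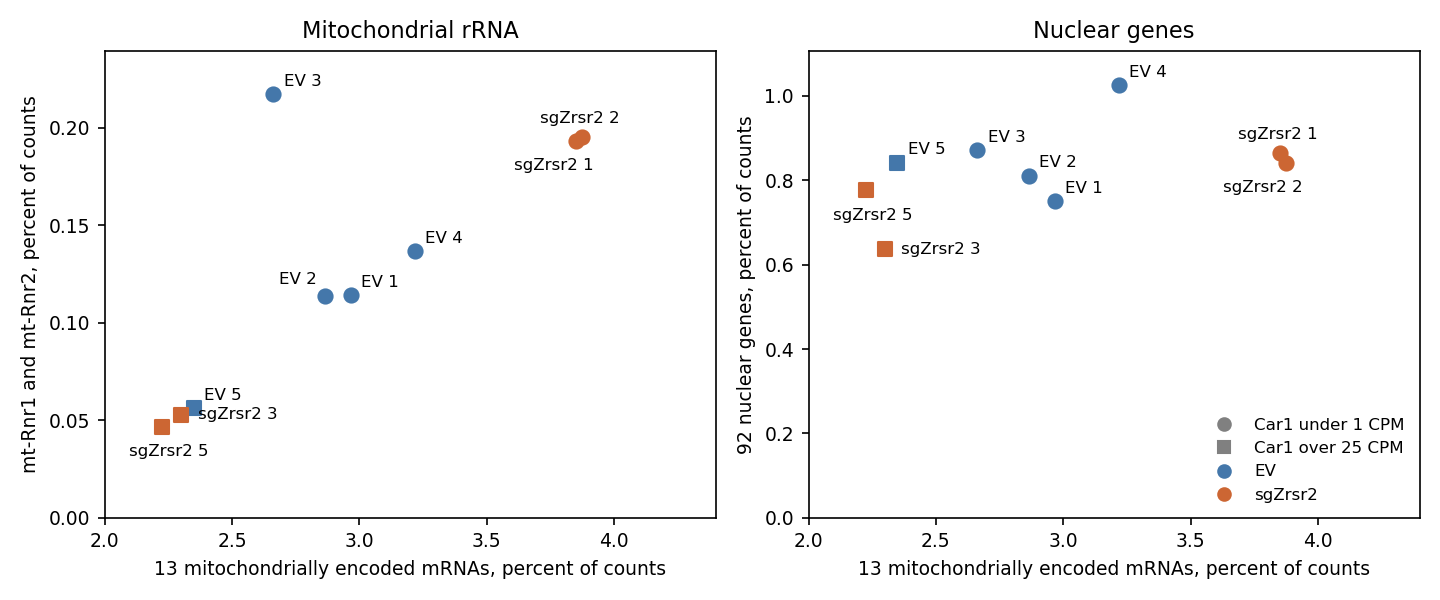
Mitochondrial rRNA (left) and the 92 nuclear genes (right), as percent of library counts on the vertical axes, against the 13 mitochondrially encoded mRNAs in percent on the horizontal axes; points are libraries, coloured by group, and squares are those with Car1 over 25 CPM. The 3 squares have the lowest mitochondrial mRNA share (2.23% to 2.35%) and the lowest rRNA share (0.0466% to 0.0562%).

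Complex I takes electrons from NADH, and all 36 of its nuclear subunits had a log2 fold change below 0, with a median of -0.18 and a lowest value of -0.45. Without sgZrsr2 mouse 3, 30 of 36 were below 0 with a median of -0.07, and without the 3 libraries high in Car1, 21 of 36 with a median of -0.01. The smallest p was that of Ndufa2 (chromosome 18), an accessory subunit, at 32.3, 37.5, 49.3, 51.9 and 38.7 CPM in EV and 35.1, 36.3, 30.5 and 35.4 CPM in sgZrsr2. Its log2 fold change was -0.29 ± 0.15 (edgeR adjusted p = 0.714), and the sgZrsr2 values lay in or just under the lower part of the EV range. Ndufa5 had the lowest value of the complex, -0.45 ± 0.24, and this rested on EV mouse 4, whose 27.8 CPM stood apart from 15.6, 14.5, 9.63 and 11.9 CPM in sgZrsr2 and 13.4 to 16.9 CPM in the other EV libraries. Core subunits that carry the flavin and the iron-sulfur clusters ranged on both sides of the median: Ndufv1, which binds NADH, was at -0.13 ± 0.16 and Ndufs1 at -0.13 ± 0.11, Ndufv2 at -0.19 ± 0.21 and Ndufs7 at -0.27 ± 0.15. Ndufs7 differed in pattern: its lowest levels, 45.8 and 38.8 CPM, were in sgZrsr2 mice 1 and 2, and without the 3 libraries high in Car1 its value was -0.45 (unadjusted p = 0.0538, adjusted p = 0.459). Ndufb11, an X-linked accessory subunit, had the highest level per length of the nuclear subunits of complex I, 102 CPM per kilobase, and at 79.9 to 105 CPM it was among the steadiest.

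The 6 assembly factors Ndufaf1 to Ndufaf6 help to build complex I and do not stay in it. They too were all below 0, with a median of -0.10, and 3 of 6 with a median of 0.03 without the 3 libraries high in Car1. Their median level per length was 6.23 CPM per kilobase, under the 28.9 CPM per kilobase of the nuclear subunits of complex I. Ndufaf4, whose promoter window is among those printed, was at 33.4, 37.6, 54.3, 49.3 and 34.2 CPM in EV and 39.6, 41.9, 25.6 and 31.6 CPM in sgZrsr2 (log2 fold change -0.27 ± 0.19, adjusted p = 0.744). Ndufaf3 had its highest levels, 9.10 and 9.26 CPM, in sgZrsr2 mice 3 and 5, where most subunits were low. Both factors had groups that overlapped.

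Complex II, succinate dehydrogenase, has 4 subunits and links the chain to the tricarboxylic acid cycle. All 4 were below 0, with a median of -0.12, and 3 of 4 with a median of -0.07 without the 3 libraries high in Car1. The iron-sulfur subunit Sdhb was at 75.9, 72.7, 95.5, 91.9 and 77.9 CPM in EV and 80.8, 71.6, 55.0 and 71.9 CPM in sgZrsr2, a log2 fold change of -0.25 ± 0.13 (edgeR adjusted p = 0.714). The flavin subunit Sdha, which holds the catalytic site, kept to 264, 289, 279, 303 and 302 CPM in EV and 262, 269, 244 and 292 CPM in sgZrsr2 (log2 fold change -0.11 ± 0.10). The library of sgZrsr2 mouse 3 was the lowest in both genes. The membrane anchors Sdhc and Sdhd were at -0.14 ± 0.12 and -0.05 ± 0.17, and Sdhd had the highest level per length, 92.8 CPM per kilobase.

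Complex III passes electrons from ubiquinol to cytochrome c. Its 8 nuclear genes were all below 0, with a median of -0.20, and without the 3 libraries high in Car1, 5 of 8 were, with a median of -0.01. Uqcr10 (chr11:4701973-4704342, minus strand), a small supernumerary subunit, was at 42.1, 51.5, 66.1, 83.4 and 52.7 CPM in EV and 46.5, 49.9, 31.1 and 44.6 CPM in sgZrsr2. The log2 fold change was -0.46 ± 0.21 (edgeR p = 0.0472, adjusted p = 0.714; two-sided exact permutation p = 0.111), and without the 3 libraries high in Car1 it was -0.33 (unadjusted p = 0.248). The EV libraries alone ran from 42.1 to 83.4 CPM and covered 3 of the 4 sgZrsr2 values. The other small subunits ran from Uqcrq at -0.41 ± 0.27 and Uqcr11 at -0.34 ± 0.19 to Uqcrb at -0.23 ± 0.17 and Uqcrh at -0.09 ± 0.11. The large core proteins Uqcrc1 and Uqcrc2 and the Rieske iron-sulfur protein Uqcrfs1 were at -0.08, -0.10 and -0.17.

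Complex IV, cytochrome c oxidase, has several nuclear subunits in pairs of which 1 is widespread and the other restricted to certain tissues. In LSK cells the widespread form made up nearly the whole of each pair, per length: Cox4i1 98.7% of Cox4i1 and Cox4i2, Cox6a1 95.6% of the Cox6a pair, Cox6b1 93.3% of the Cox6b pair, and Ndufa4 99.9% of Ndufa4 and Ndufa4l2. Cox8a, at 265 CPM per kilobase the highest of its nuclear subunits, was nearly alone, with 1 count for Cox8b and 0 for Cox8c in all libraries together. Cox7b2 also had 0 counts, which in a single library allows up to 0.0663 to 0.134 CPM (3 counts, counting error only). Cox7a1, the form of heart and skeletal muscle, had 65 counts in all against 13834 for Cox7a2. Of the 14 tested nuclear subunits, 12 were below 0 and the median was -0.18. When the 3 libraries high in Car1 were left out, 7 of 14 were below 0.

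Values in complex IV spread most at its low end. Cox4i2, the form of Cox4 known from lung, had the lowest fold change of all members and the smallest p of the complex: it was at 0.922, 1.46, 2.56, 4.51 and 1.40 CPM in EV and 1.16, 1.80, 0.681 and 1.11 CPM in sgZrsr2 (log2 fold change -0.88 ± 0.49, edgeR adjusted p = 0.717). That value rested on EV mouse 4, and without that library it was -0.42. Cox6a2, the muscle form, ran against its widespread partner, with 6.31, 6.21, 5.83, 2.77 and 8.05 CPM in EV and 2.49, 4.20, 13.1 and 4.70 CPM in sgZrsr2. It was highest in sgZrsr2 mouse 3 and low in EV mouse 4, the reverse of most nuclear genes, and its log2 fold change turned from 0.08 ± 0.46 to -0.62 without sgZrsr2 mouse 3. Cox6b2, known from testis, was the member with the highest value, 0.24 ± 0.20, through 13.1 CPM in sgZrsr2 mouse 1 against 7.33 to 8.32 CPM in EV. Among the widespread forms, Ndufa4 was at 102, 119, 148, 144 and 108 CPM in EV and 162, 141, 57.4 and 85.3 CPM in sgZrsr2, so that the highest and the lowest of the 9 libraries were both in the sgZrsr2 group. Cox4i1, Cox5a, Cox5b, Cox6c and Cox7c were at -0.15, -0.16, -0.26, -0.25 and -0.32.

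The 15 nuclear genes of complex V were all below 0 over the 9 libraries, with a median of -0.24, the lowest of the nuclear medians there. Without the 3 libraries high in Car1 the median was -0.06 with 11 of 15 below 0, and complex II was lower. The catalytic subunits were among the 3 nuclear genes with the highest level per length: Atp5a1 (alpha) was at 312 and Atp5b (beta) at 263 CPM per kilobase, with Cox8a between them. Atp5b was at 933, 1028, 1453, 1391 and 1083 CPM in EV and 1208, 1173, 742 and 1005 CPM in sgZrsr2, a log2 fold change of -0.19 ± 0.18 (adjusted p = 0.800). For Atp5a1 the value was -0.14 ± 0.15. EV mouse 3 was the highest and sgZrsr2 mouse 3 the lowest library in both.

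The c-ring of ATP synthase, which turns as protons pass, is made from 1 protein encoded by 3 genes. As counted, Atp5g3 made up 72.8% of their level per length, Atp5g2 15.1% and Atp5g1 12.1%. These shares leave out the reads given to the pseudogenes named below, so they do not give a firm order of the genes. Not divided by length, Atp5g1 was above Atp5g2, at 47.8 to 110.9 CPM against 23.5 to 45.8 CPM. Atp5g2 had the smallest p of all members: it was at 28.5, 36.6, 41.4, 45.8 and 32.4 CPM in EV and 34.0, 28.6, 23.5 and 27.6 CPM in sgZrsr2, with a log2 fold change of -0.38 ± 0.16 (edgeR p = 0.0418, adjusted p = 0.714; two-sided exact permutation p = 0.0952). The sgZrsr2 values overlapped with the 2 lowest EV libraries. Its counts are uncertain, since RSEM gave 84.8% of the sum of both rows to the pseudogene Gm10231 on chromosome 17. With the counts of that row added, the value was -0.15. The values for Atp5g1 and Atp5g3 were -0.24 ± 0.20 and -0.32 ± 0.21, and Atp5g1 also shared reads with a pseudogene, Gm10039, which held 29.3% of their sum. Atp5j, which overlaps Gabpa, was at -0.10 ± 0.14, the nearest to 0 in the complex, and at -0.04 with the counts of Gabpa added. Gabpa is a protein-coding gene of its own and held 43.3% of the sum of both rows, so the latter value mixes 2 genes. Reads were shared in the same way by Ndufb4 with Gm3244 (67.7% of the sum in the pseudogene), Ndufs5 with BC002163 (24.4%) and Atp5h with Gm10250 (21.2%). Adding partner counts to all 18 members that had one left the nuclear median at -0.19 and 81 of 86 below 0 (51.5% of all genes). The partners included other protein-coding genes, such as Gabpa and, for Ndufa13, Tssk6.

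Besides Cox6a2 and Cox6b2, the only nuclear genes above 0 over the 9 libraries were the 3 tested genes that are neither subunits nor among Ndufaf1 to Ndufaf6. Cox7a2l, which joins complexes III and IV into supercomplexes, was at 233, 202, 175, 170.4 and 139 CPM in EV and 239, 236, 188 and 149 CPM in sgZrsr2 (log2 fold change 0.14 ± 0.18). It was high in sgZrsr2 mice 1 and 2 and in EV mouse 1 and low in EV mouse 5 and sgZrsr2 mouse 5, closer to the order of the mitochondrial genes than to that of the nuclear subunits. Atp5s and Atp5sl were at 0.17 ± 0.20 and 0.12 ± 0.10. None of these values passed the test.

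Over all genes tested in the 9 libraries, the sign moved with summed exon length. This length joins the exons of all annotated transcripts of a gene, so it can exceed the length of the transcript present in the cells. The summed exons of the tested nuclear genes had a median of 1737 bases, against 3990 bases for all genes. Over all genes tested, the median log2 fold change was -0.16 for those under 600 bases (73.6% below 0) and 0.04 for those over 4000 bases (43.2% below 0). In all 9 libraries the nuclear genes lay below all genes in each length class, also over 4000 bases, where 11 of 11 were below 0 with a median of -0.22. Their sign did not move with length, since 90.9% or more of them were below 0 in every class. Without sgZrsr2 mouse 3, the medians of the nuclear genes from 1000 to 2000 and from 2000 to 4000 bases were -0.07 and -0.03, beside -0.07 and -0.06 for all genes of those lengths. In the other 3 classes they stayed lower: -0.24 beside -0.10 under 600 bases (3 nuclear genes), -0.13 beside -0.06 from 600 to 1000 bases, and -0.09 beside 0.01 over 4000 bases. Without the 3 libraries high in Car1, the nuclear medians from the shortest to the longest class were -0.26, -0.08, -0.01, 0.02 and -0.06. Those of all genes were -0.06, -0.06, -0.07, -0.06 and -0.0008. The nuclear genes thus lay above all genes from 1000 to 2000 and from 2000 to 4000 bases in that fit. The part of length in the sign of the members was not tested. By promoter letters, the 10 tested genes with the NRF1 letters had a median of -0.26 and the 62 without them -0.18, while the 7 with the whole palindrome, 1 base longer, were at -0.19. Those with the ETS core were at -0.16 against -0.19, those with the YY1 letters at -0.22 against -0.19, and with or without the SP1 letters the median was -0.19; no test was made of these groups.

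**Figure D5:**
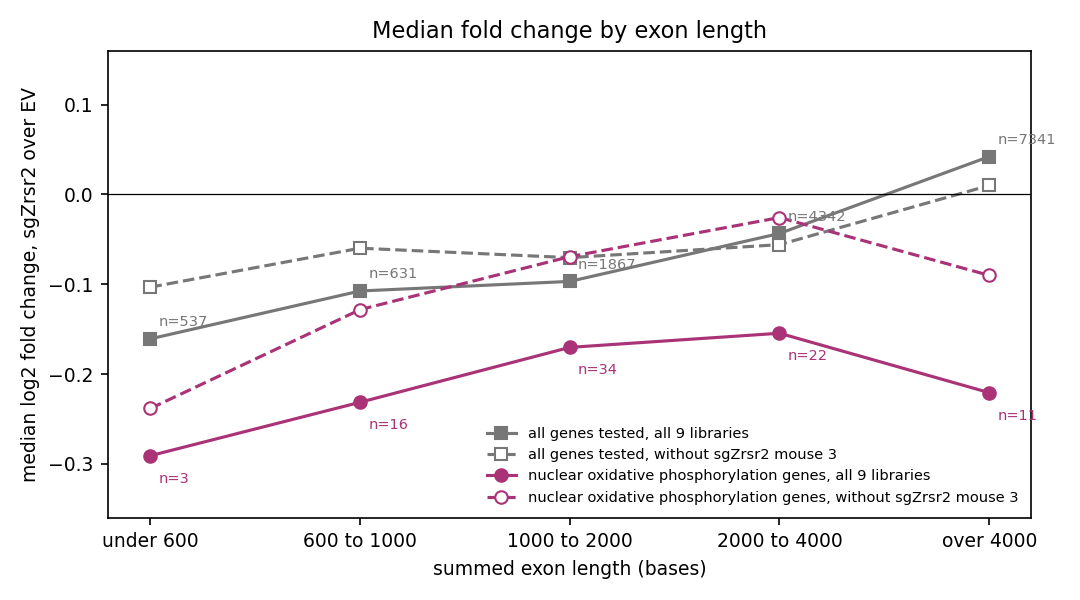
Median log2 fold change of sgZrsr2 over EV (vertical axis) by summed exon length in bases (horizontal axis) for the nuclear genes of oxidative phosphorylation (circles) and all genes tested (squares), in all 9 libraries (solid) and without sgZrsr2 mouse 3 (dashed); n is the number of genes in each class. The median of all genes goes from -0.16 under 600 bases to 0.04 over 4000 bases, and the nuclear genes lie below it in every class over all 9 libraries.

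Some other mitochondrial gene groups, listed by function, mostly had the sign of the nuclear subunits over the 9 libraries. These were the mitochondrial ribosomal proteins, further assembly factors and enzymes of the tricarboxylic acid cycle. No gene of these lists, or of those in the next paragraph, passed the adjusted test. Of 77 mitochondrial ribosomal protein genes, which translate the 13 mRNAs, 73 were below 0 with a median of -0.22. In this list 9 had an unadjusted p under 0.05 as lower (2.98% of all genes) and 7 had groups that did not overlap (1.32%). Mrpl17 was at 48.1, 46.7, 56.1, 71.7 and 52.0 CPM in EV and 40.7, 38.3, 37.9 and 45.7 CPM in sgZrsr2 (log2 fold change -0.43 ± 0.14, edgeR adjusted p = 0.714). All 4 sgZrsr2 libraries were thus below the 5 EV libraries in this gene, which no member of oxidative phosphorylation showed. Assembly factors outside the symbol rule were below 0 in 37 of 41, with a median of -0.16. Among them were Ecsit (-0.48 ± 0.18) and Foxred1 (-0.27 ± 0.09), which help to assemble complex I. Enzymes of the tricarboxylic acid cycle were below 0 in 17 of 18, with a median of -0.11. There, fumarate hydratase (Fh1) was at 120.2, 116, 106, 122 and 112 CPM in EV and 85.3, 88.8, 82.3 and 99.9 CPM in sgZrsr2 (log2 fold change -0.37 ± 0.10, unadjusted p = 0.00281, adjusted p = 0.714), again with groups that did not overlap. Fh1, Mrpl17, Ecsit, Foxred1 and the genes named in the rest of this paragraph were picked after their values were seen.

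Genes that make, copy and regulate mitochondrial RNA and DNA were less uniform. Of 23 genes of mitochondrial transcription and RNA processing, 13 were below 0 (median -0.11), with the transcription factor Tfam at -0.15 ± 0.11 and the RNA polymerase Polrmt at -0.11 ± 0.15. Of 9 genes of mitochondrial DNA replication, 7 were below 0 (median -0.23). Of 11 regulators of mitochondrial biogenesis, 4 were below 0 (median 0.02), with Nrf1 at 0.20 ± 0.12, Gabpa at 0.02 ± 0.13 and Esrra at -0.05 ± 0.13. The coactivator Ppargc1a was scarce, at 0.306 to 1.34 CPM. Mobile electron carriers, cytochrome c and the enzymes of ubiquinone synthesis, were below 0 in 12 of 14 (median -0.12), with cytochrome c itself, Cycs, at -0.41 ± 0.23. Mitochondrial antioxidant and uncoupling genes were below 0 in 11 of 12 (median -0.15). In glycolysis, which makes ATP outside the mitochondrion, 14 of 21 genes were below 0 (median -0.09). Its lowest value was that of the glucose transporter Slc2a1, -0.93 ± 0.34, with 123 CPM in EV mouse 3 against 27.8 to 70.4 CPM in the other 8 libraries. Without the 3 libraries high in Car1, the signs were less uniform in several lists: 57 of the 77 ribosomal protein genes were below 0 (median -0.12), 32 of 41 assembly factors (-0.11), 6 of 18 genes of the tricarboxylic acid cycle (0.05) and 5 of 12 antioxidant and uncoupling genes (0.02). In the same comparison 13 of 23 genes of transcription and RNA processing (-0.03), 8 of 9 of replication (-0.26), 6 of 11 regulators (-0.0026), 10 of 14 electron carriers (-0.22) and 10 of 21 glycolysis genes (0.0034) were below 0.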

How the data were processed

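RNA of 9 libraries was sequenced after selection of polyadenylated RNA from 5 ng of total RNA and PCR, per the labels' protocols. The deposited values are expected counts per gene, not normalized, made by the authors with RSEM 1.2.30 after cutadapt 1.11 on GRCm38, per the submitters' processing notes. Aligner, annotation release and strandedness are not given in the sources used here. Titles number the mice; that they are separate animals is taken from these numbers, and p-values measure the spread between these samples.

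Expected counts were rounded, filtered with filterByExpr (minimum count 10, total 15, 14944 genes kept), scaled with TMM and compared with edgeR 4.0.16 (glmQLFit, glmQLFTest, R 4.3.3), with Benjamini-Hochberg adjustment over all genes. The standard error is the fold change over the square root of F. Exact permutation tests ran over 126 splits (smallest p 0.0159). Lengths are unions of GENCODE M21 exons; all 105 genes were found there, 68 with identical coordinates. A count was called not whole beyond 0.005 of a whole number; 35 members had such counts. Alternatives changed the scaling, filter, rounding, dispersion, mouse block and libraries, or used limma 3.58.1 (voom with quality weights) or DESeq2 1.42.0. The fit was tested on simulated counts.

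Named were the 13 mitochondrial genes, the smallest p in each complex, the highest level per length and paralog families; others illustrate each complex. Lists and members were chosen with earlier results of these data known, and the promoter letters were last set after the values were seen; 3 listed symbols (Fastkd4, Coa1, Pet117) matched no row. Depth limits genes of few counts, and intervals cover counting error only.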

Additional observations from a re-analysis of the deposited data

Results flagged for a closer look

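Of 72 sets of values screened for a library far from the rest of its group, 2 stood out, both in EV mouse 4; chance gives about 1 in 20, or 3.6 of 72. The summed share of the 6 complex I assembly factors was 0.0114% of counts in EV mouse 4 and 0.0087% to 0.0094% in the other EV libraries. The level of mt-Nd4l was 113 CPM in EV mouse 4 and 78.4 to 87.6 CPM in the other EV libraries; its counts are shared with Gm10222.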

How the results depend on the processing

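No member was called with any tool, scaling, filter or set of libraries tried. Over all genes, the count of 0 became 16 with DESeq2 and 1 with sgZrsr2 mice 1 and 2 averaged; at an unadjusted p under 0.05, edgeR had 579 genes higher and 445 lower. The nuclear median stayed between -0.28 and -0.07 with 1 library left out, and the mitochondrial median between -0.06 and 0.23. The 6 nuclear genes with the smallest p of their group, mt-Co3 and mt-Atp8 kept their sign but not their size: with limma-voom weights Ndufaf4 was at -0.02, Sdhb at -0.07 and Ndufa2 at -0.10, without sgZrsr2 mouse 3 Ndufaf4 and Sdhb were at -0.15, and mt-Co3 was at 0.01 without sgZrsr2 mouse 1. The other mitochondrial genes changed sign in some setting. With sgZrsr2 mice 1 and 2 averaged, mt-Nd1 was at -0.13, mt-Nd2 at -0.13, mt-Nd4 at -0.0162, mt-Nd4l at -0.0146, mt-Nd5 at -0.00753, mt-Nd6 at -0.0933, mt-Cytb at -0.0351, mt-Co1 at -0.0538, mt-Co2 at -0.0491 and mt-Atp6 at -0.0533. The gene mt-Nd2 was at -0.0109 with upper-quartile factors, -0.00167 without a filter and -0.00142 with at least 1 CPM in 4 libraries, mt-Nd6 at -0.00219 with upper-quartile factors, and mt-Nd3 at 0.19 with limma-voom and quality weights and 0.30 without the 3 libraries high in Car1. With 1 library left out the log2 fold change ran from -0.14 to 0.31 for mt-Nd1, from -0.13 to 0.14 for mt-Nd2, from -0.29 to 0.0982 for mt-Nd3, from -0.0234 to 0.26 for mt-Nd4, from -0.0181 to 0.17 for mt-Nd4l, from -0.0186 to 0.19 for mt-Nd5, from -0.0969 to 0.11 for mt-Nd6, from -0.0414 to 0.26 for mt-Cytb, from -0.0651 to 0.25 for mt-Co1, from -0.0581 to 0.27 for mt-Co2 and from -0.0619 to 0.30 for mt-Atp6. The cause of these changes was not tested. With the mouse number as a replicate block the nuclear median was -0.13 and the mitochondrial median 0.10. In that fit 0 genes were called (182 higher and 151 lower at an unadjusted p under 0.05). Deviations from the group means correlated at -0.45, -0.20, -0.62 and 0.60 between libraries of the same number. Between libraries of different numbers the correlations ran from -0.585 to 0.642. So few values cannot settle whether the numbers pair the samples. The fit with partner counts added was chosen after the data were seen. Depth, 23238264 to 45585531 counts per library, limits Cox4i2 and other genes of few counts.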
